A study of Homo sapiens with 20 samples.

Results

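The E2F transcription factors and the pocket proteins that bind them were followed across 20 exon arrays of LP-1 and Raji cells. The 10 genes are E2F1 to E2F8, RB1 and RBL1. Each was found by its symbol among probe sets (the groups of array probes summarised into 1 value) that carry a single gene symbol, taking the probe set with the highest mean, and each had exactly 1 such probe set. They are 10 of the 14232 genes measured this way, on a table of 22011 probe sets.

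LP-1 comes from a human multiple myeloma, in which plasma cells are malignant. Raji comes from a human Burkitt lymphoma, a malignancy of B cells. The groups were cells given 500 nM of an unnamed BET inhibitor and sampled after 4 or 8 h, cells given the same dose of its inactive enantiomer for the same times, and cells given no compound and sampled at 0 h. With both lines this made 10 groups of 2 biological replicates. BET proteins are bromodomain proteins that read acetylated histones, and an enantiomer is the mirror-image form of a molecule. The labels give no untreated or vehicle culture at 4 or 8 h, and the lines were grown in different media, IMDM for LP-1 and RPMI for Raji.

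E2F proteins bind the promoters of genes needed for S phase, the part of the cell cycle in which DNA is copied. E2F1, E2F2 and E2F3 are activators that the retinoblastoma protein RB1 holds back until cyclin-dependent kinases phosphorylate it. E2F4 and E2F5 repress mainly together with the pocket proteins RBL1 (p107) and RBL2 (p130), E2F6 represses without a pocket protein, and E2F7 and E2F8 are atypical members that need no DP partner and dampen E2F targets late in the cycle. RBL2 shares its probe set with another gene and was not analysed here.

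All values are log2 RMA expression values as deposited (RMA is a method that corrects background, normalises and summarises array probes). A change is the log2 difference between 2 group means, with its standard error and an adjusted p from limma, and a gene passed at an adjusted p under 0.05 after Benjamini-Hochberg adjustment over all 22011 probe sets. Array medians lay between 5.132 and 5.395, and Pearson's r between the replicate arrays of a group was 0.973 to 0.989 across probe sets, which are not independent of each other. The lines carried their own markers: all 6 plasma cell markers were lower in untreated Raji than in untreated LP-1 (from -5.67 to -1.41), and the 6 B cell markers with a probe set of their own were higher (from 1.94 to 5.54). MYC, a known activator of E2F genes and a common readout of BET inhibition, was at 7.38 and 7.18 in LP-1 with the inhibitor at 4 h, against 9.59 and 9.58 with the inactive enantiomer. In Raji at 4 h it averaged 6.98 with the inhibitor, against 8.39 with the inactive enantiomer, a 2.65-fold lower value (adjusted p = 0.00129).

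In LP-1 the BET inhibitor lowered E2F2 and E2F8 at 4 h relative to its inactive enantiomer, and at 8 h it lowered E2F4 and E2F5 and raised E2F7. Of the 10 genes, 2 passed at 4 h, both lower, where 1.9% of all probe sets passed as lower and 2.28% in either direction. At 8 h 3 of 10 passed, 1 higher and 2 lower, against 3.76% of all probe sets higher, 1.97% lower and 5.73% in either direction. In Raji 0 of 10 passed by limma at either time, against 1.78% of all probe sets at 4 h and 1.88% at 8 h, with 2 and 1 of the 10 at an unadjusted p under 0.05. The median change of the 10 genes was -0.34 and 0.18 in LP-1 at 4 and 8 h and 0.15 and -0.01 in Raji, beside -0.04, 0.06, 0.01 and 0.00 over all probe sets. After quantile normalization of the deposited values the medians of the 10 genes were -0.13, 0.09, 0.00 and -0.01. The median of 0.18 in LP-1 at 8 h was 0.01 without the first inhibitor array and 0.03 without the first array of the inactive enantiomer. In Raji at 4 h the median was 0.26 without the first inhibitor array and 0.24 without the first array of the inactive enantiomer. RNA came from whole cultures, so fewer cells expressing a gene and less RNA per cell cannot be told apart.

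**Figure D1:**
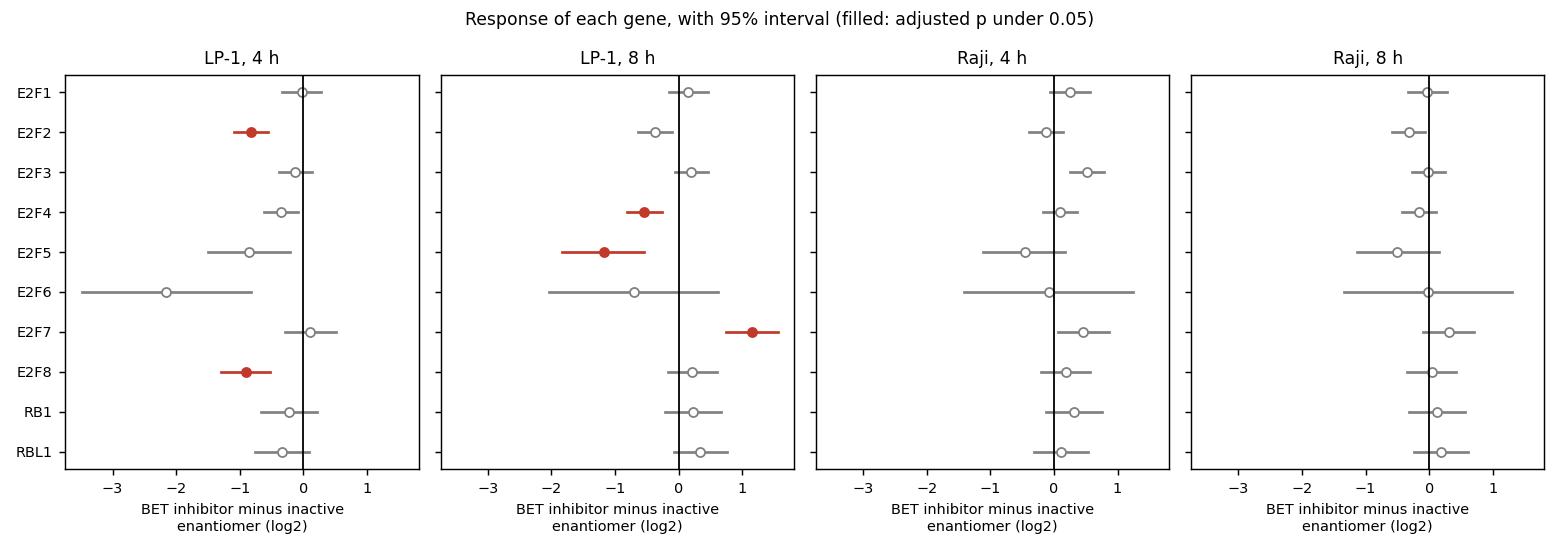
Log2 change with the BET inhibitor relative to the inactive enantiomer for the 10 genes in each line and time; points are differences of group means (n = 2 arrays per group), bars are 95% intervals, and filled red points passed at an adjusted p under 0.05. E2F2 and E2F8 in LP-1 at 4 h and E2F4, E2F5 and E2F7 in LP-1 at 8 h are filled, and E2F6 has the widest intervals.

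The promoter sequences of 4 of these genes are shown because their values went different ways: E2F2 and E2F4 fell, E2F7 rose and E2F1 passed in no comparison. They are the 250 bases before the RefSeq transcription start on GRCh38.p14, read 5′ to 3′ on the strand of the gene. The E2F1 window is chr20:33686386-33686635 on the minus strand. The E2F2 window is chr1:23531234-23531483 on the minus strand. The E2F4 window is chr16:67191905-67192154 on the plus strand. The E2F7 window is chr12:77065570-77065819 on the minus strand. Capitals mark every match, on either strand, to the E2F letters TTTCCCGC, TTTGGCGC, TTTCGCGC or TTTGCCGC, or to CACGTG, the E-box bound by MYC and MAX.
E2F1: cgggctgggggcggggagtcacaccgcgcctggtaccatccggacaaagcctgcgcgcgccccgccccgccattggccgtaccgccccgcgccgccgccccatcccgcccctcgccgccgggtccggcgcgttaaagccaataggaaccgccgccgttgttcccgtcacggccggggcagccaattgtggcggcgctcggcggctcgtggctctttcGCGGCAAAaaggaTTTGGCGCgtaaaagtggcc
E2F2: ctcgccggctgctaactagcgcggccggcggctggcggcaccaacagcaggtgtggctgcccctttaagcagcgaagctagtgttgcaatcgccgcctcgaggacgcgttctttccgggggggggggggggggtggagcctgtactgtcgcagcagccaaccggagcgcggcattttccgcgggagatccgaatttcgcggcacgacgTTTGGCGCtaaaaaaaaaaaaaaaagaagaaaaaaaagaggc
E2F4: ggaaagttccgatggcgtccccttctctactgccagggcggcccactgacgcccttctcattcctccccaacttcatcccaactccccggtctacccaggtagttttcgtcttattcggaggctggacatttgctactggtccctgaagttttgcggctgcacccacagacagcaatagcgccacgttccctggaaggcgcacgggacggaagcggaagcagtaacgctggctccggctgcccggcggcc
E2F7: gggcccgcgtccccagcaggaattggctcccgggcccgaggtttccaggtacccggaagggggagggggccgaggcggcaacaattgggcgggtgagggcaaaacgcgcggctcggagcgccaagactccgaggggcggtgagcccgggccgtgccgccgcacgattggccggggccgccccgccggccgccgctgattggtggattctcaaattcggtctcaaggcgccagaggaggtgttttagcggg

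E2F1 holds 2 matches to the E2F letters, first bases at -33 and -20 from the start, and E2F2 holds 1, at -42. Of the 8 genes with a window, 4 have the E2F letters in at least 1 window (E2F1, E2F2, E2F3 and RBL1), and 1 has the E-box (E2F3, in 1 of its 2 windows). The RB1 window starts 172699 bases inside the annotated gene, so it says nothing of the promoter at the start of RB1, and without it the letters are in 4 of 7 genes. The E2F3 window with the E-box starts 1735 bases inside its gene. Of 35116 RefSeq windows of this length, 2.79% hold the E2F letters and 6.34% the E-box. In E2F4 and E2F7 these letters are not in the window. E2F2 and E2F1, which both hold the letters, had changes of -0.82 and -0.02 in LP-1 at 4 h.

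Among the activators, E2F2 was the member that passed against the inactive enantiomer. In LP-1 at 4 h it was at 6.06 and 6.22 with the BET inhibitor, against 6.92 and 7.01 with the inactive enantiomer. Both inhibitor arrays lay below both control arrays, and E2F2 fell by 0.82 ± 0.12 (SE, n = 2 arrays per group), a 1.77-fold lower value (adjusted p = 0.00523). Without the second control array the adjusted p was 0.0695. At 8 h the arrays were at 6.74 and 6.54 with the inhibitor, against 6.97 and 7.05 with the inactive enantiomer, a change of -0.37 ± 0.12 (adjusted p = 0.107). The groups did not overlap at 8 h either, but the change did not pass. With 2 arrays per group such separation is easily reached without a change, so here and below it is only a description. Quantile normalization of the deposited values gave -0.44 (adjusted p = 0.0449) at 8 h. In Raji the changes of E2F2 were -0.12 ± 0.12 and -0.32 ± 0.12 at 4 and 8 h (adjusted p = 0.742 and 0.258). Over the 10 groups the lowest E2F2 mean was that of LP-1 with the inhibitor at 4 h (6.14 ± 0.12, SD), followed by LP-1 with the inhibitor at 8 h (6.64 ± 0.14). The other 8 group means lay between 6.81 and 7.21.

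E2F1, the E2F activator most often studied with RB1, passed in no comparison. In LP-1 at 4 h it was at 7.20 and 6.93 with the BET inhibitor, against 7.02 and 7.15 with the inactive enantiomer, so the groups overlapped. In LP-1 at 4 h the 95% interval of its change ran between -0.33 and 0.28, and in Raji at 8 h between -0.34 and 0.28. In Raji at 4 h it was at 7.19 and 7.23 with the inhibitor, against 6.97 and 6.96 with the inactive enantiomer. These groups did not overlap, but the change of 0.25 ± 0.14 did not pass (adjusted p = 0.485). The 10 group means of E2F1 lay between 6.96 and 7.26.

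E2F3, the third activator, came closest to passing in Raji. At 4 h it was at 6.88 and 7.03 with the BET inhibitor, against 6.41 and 6.47 with the inactive enantiomer. Both inhibitor arrays were above both control arrays, with a change of 0.52 ± 0.12 (adjusted p = 0.0517). It passed at an adjusted p of 0.0342 when the dimmest probe sets were left out and 0.0366 with an intensity trend in the variances. Across the Raji groups the mean was 6.96 with the inhibitor at 4 h and between 6.44 and 6.57 in the other 4. At 8 h in Raji the change was -0.01 ± 0.12, and in LP-1 it was -0.13 ± 0.12 and 0.20 ± 0.12 at 4 and 8 h, none of which passed.

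**Figure D2:**
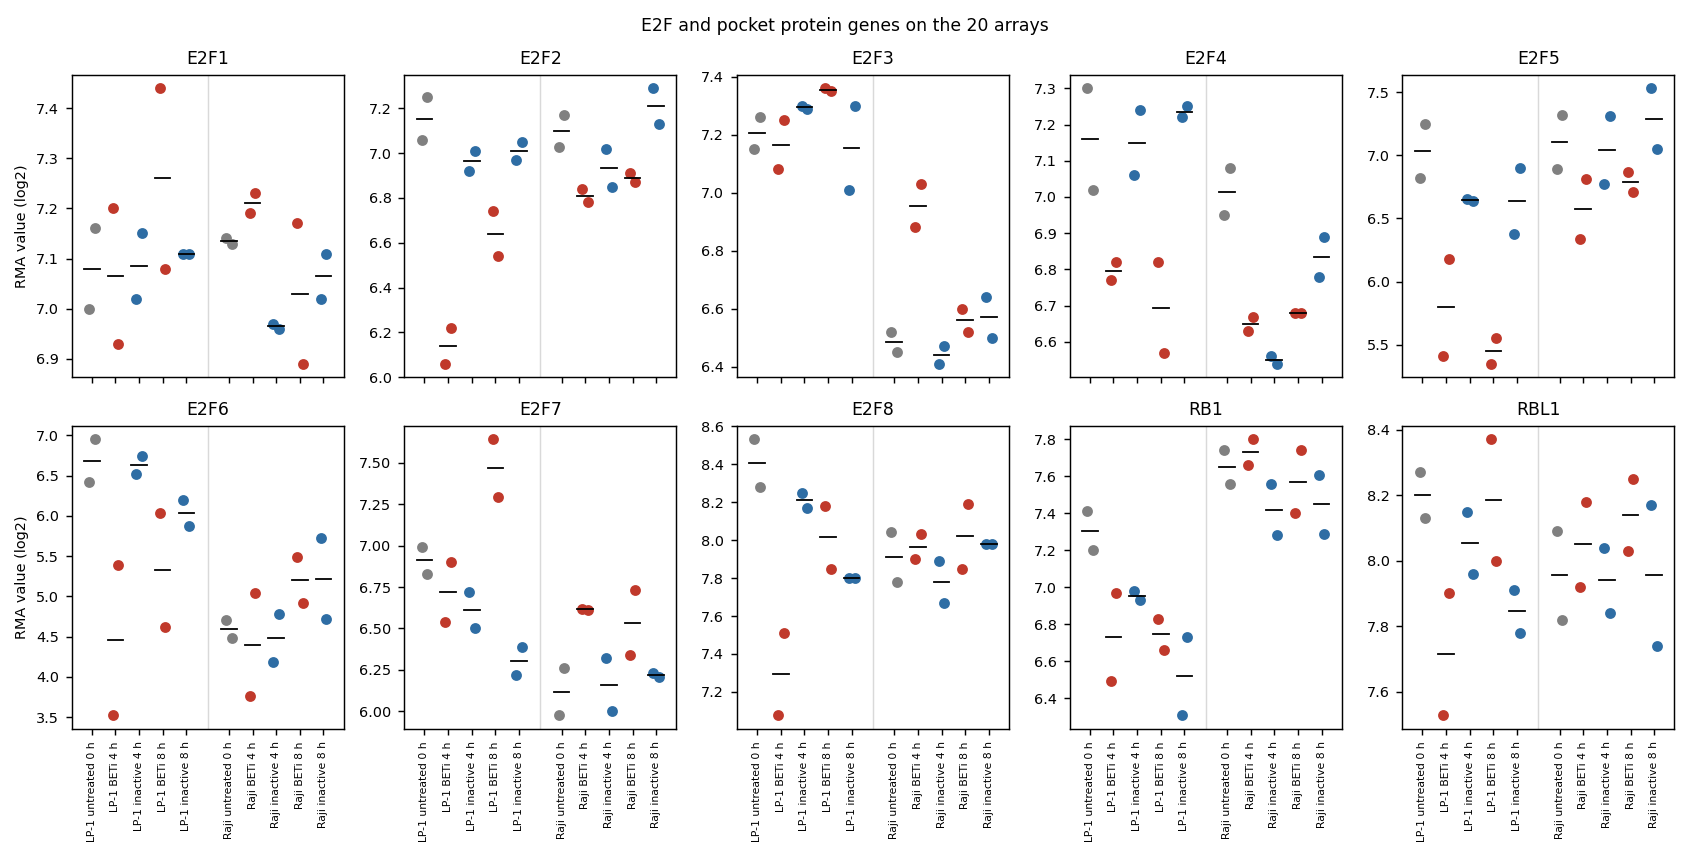
Log2 RMA values of the 10 genes on all 20 arrays, 1 point per array, with a bar at each group mean (n = 2); grey is untreated, red the BET inhibitor and blue the inactive enantiomer, and each panel has its own vertical scale. The E2F2 points of LP-1 with the inhibitor at 4 h (6.06 and 6.22) lie below all other arrays, and the E2F7 points of LP-1 with the inhibitor at 8 h (7.64 and 7.29) lie above all others.

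E2F4 and E2F5, the repressors that work with RBL1 and RBL2, were lower with the BET inhibitor in LP-1 at 8 h. E2F4 was at 6.82 and 6.57 with the inhibitor, against 7.22 and 7.25 with the inactive enantiomer. It fell by 0.54 ± 0.12 (1.46-fold, adjusted p = 0.0237), and the groups did not overlap. At 4 h its change in LP-1 was -0.35 ± 0.12 (adjusted p = 0.196). E2F5 was at 5.35 and 5.55 with the inhibitor at 8 h, against 6.38 and 6.90 with the inactive enantiomer. It fell by 1.18 ± 0.30 (2.27-fold, adjusted p = 0.0364), again without overlap. Leaving out each of the 4 arrays in turn ended the call of E2F5 in all 4 fits (adjusted p up to 0.214) and that of E2F4 in 3 of them (up to 0.13). At 4 h E2F5 was at 5.41 and 6.18 with the inhibitor, against 6.65 and 6.64 with the inactive enantiomer, a change of -0.85 ± 0.30 that did not pass (adjusted p = 0.193).

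In Raji neither repressor passed. E2F5 was at 6.34 and 6.81 with the inhibitor at 4 h, against 6.77 and 7.31 with the inactive enantiomer, and the groups overlapped. Its changes were -0.46 ± 0.30 and -0.50 ± 0.30 at 4 and 8 h, with 95% intervals of -1.11 to 0.18 and -1.14 to 0.15. The changes of E2F4 in Raji were 0.10 ± 0.12 and -0.16 ± 0.12. Over the 5 LP-1 groups the mean of E2F5 was 5.79 and 5.45 with the inhibitor at 4 and 8 h, 6.64 with the inactive enantiomer at each time and 7.03 in untreated cells. No Raji group mean of E2F5 was below 6.58. The intervals of E2F5 in Raji include the change of -0.85 measured in LP-1 at 4 h, which did not pass. They do not include the -1.18 measured in LP-1 at 8 h. The response of Raji minus that of LP-1 at 8 h was 0.69 ± 0.42 for E2F5 and did not pass by limma (adjusted p = 0.689).

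E2F6, the repressor that works without pocket proteins, had the largest change of the 10 genes in size and the largest spread. In LP-1 at 4 h it was at 3.53 and 5.39 with the BET inhibitor, against 6.52 and 6.74 with the inactive enantiomer. The groups did not overlap, yet the change of -2.16 ± 0.61 did not pass (adjusted p = 0.0979). Its SD within groups was 0.68, larger than that of 94.5% of probe sets, beside 0.10 for E2F2 and a median of 0.20 over all probe sets. E2F6 lay below the median of its array on 10 of the 20 arrays, and no test against background was made. Leaving out the second inhibitor array gave -3.09 (adjusted p = 0.0209), and leaving out the first gave -1.23 (adjusted p = 0.517). At 8 h in LP-1 the change was -0.71 ± 0.61, and in Raji it was -0.08 ± 0.61 and -0.01 ± 0.61, with intervals as wide as -1.41 to 1.25. In several groups 1 replicate was lower for most of the 10 genes. In LP-1 with the inhibitor at 8 h the first array had the lower value for 1 of the 10. That count was 8 in Raji with the inhibitor at 4 h and 2 in Raji with the inactive enantiomer at 8 h. The first inhibitor array of LP-1 at 4 h had the lower value for 9 of the 10 genes, and its 75th percentile was 6.797 against 7.028 on its replicate. The part of that array in these changes was not tested, but without it E2F2 still passed and E2F8 changed by -0.70 (adjusted p = 0.158).

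The atypical repressors E2F7 and E2F8 passed at different times in LP-1. E2F8 was at 7.08 and 7.51 with the BET inhibitor at 4 h, against 8.25 and 8.17 with the inactive enantiomer. It fell by 0.91 ± 0.18 (1.88-fold, adjusted p = 0.0189), with no overlap. Its call was lost in 3 of the 4 fits that left out 1 array. At 8 h E2F8 was at 8.18 and 7.85 with the inhibitor, against 7.80 on both arrays with the inactive enantiomer, a change of 0.21 ± 0.18 (adjusted p = 0.596).

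E2F7 was at 7.64 and 7.29 with the BET inhibitor in LP-1 at 8 h, against 6.22 and 6.39 with the inactive enantiomer. It rose by 1.16 ± 0.19 (2.23-fold, adjusted p = 0.00416), the groups did not overlap, and the call held without each of the 4 arrays in turn (adjusted p up to 0.0424). At 4 h the arrays were at 6.54 and 6.90 with the inhibitor, against 6.72 and 6.50 with the inactive enantiomer, and they overlapped (0.11 ± 0.19). In Raji at 4 h E2F7 averaged 6.62 with the inhibitor, against 6.16 with the inactive enantiomer. The changes in Raji were 0.46 ± 0.19 at 4 h (adjusted p = 0.279) and 0.31 ± 0.19 at 8 h (adjusted p = 0.554). The Raji inhibitor arrays lay above both control arrays at each time, with neither change passing. Raji E2F8 was within 0.19 of its control at both times.

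The pocket proteins RB1 and RBL1 passed in none of the 4 comparisons. RB1, the retinoblastoma protein, was at 6.49 and 6.97 with the BET inhibitor in LP-1 at 4 h, against 6.98 and 6.93 with the inactive enantiomer. Its changes at 4 h were -0.23 ± 0.20 in LP-1 and 0.31 ± 0.20 in Raji. RBL1 was at 7.53 and 7.90 with the inhibitor in LP-1 at 4 h, against 8.15 and 7.96 with the inactive enantiomer, so both inhibitor arrays were below both controls (-0.34 ± 0.19, adjusted p = 0.481). At 8 h RBL1 was at 8.37 and 8.00 with the inhibitor, against 7.91 and 7.78 with the inactive enantiomer, and the inhibitor arrays were above (0.34 ± 0.19, adjusted p = 0.381). Neither RBL1 change passed. In Raji the changes of RBL1 were 0.11 ± 0.19 and 0.19 ± 0.19 at 4 and 8 h, and all 5 group means lay between 7.94 and 8.14. RB1 means lay between 7.42 and 7.73 in the 5 Raji groups, and in LP-1 between 6.52 with the inactive enantiomer at 8 h and 7.31 in untreated cells.

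Comparisons with untreated cells ask how far each compound moved the genes from the start of the experiment, and they join compound and time in culture. The inactive enantiomer moved 0 of the 10 genes past the limma threshold in either line at either time, with 0 and 3 of 10 at an unadjusted p under 0.05 in LP-1 at 4 and 8 h and 1 and 0 in Raji. In LP-1 0.0136% of all probe sets passed at 4 h and 0.504% at 8 h, and in Raji 0% at both times. The inactive LP-1 cells at 8 h nevertheless lay below untreated cells in several members. RB1 was at 6.31 and 6.73 in them, against 7.41 and 7.20 in untreated cells (-0.78 ± 0.20, adjusted p = 0.104). E2F8 differed by -0.61 ± 0.18 (adjusted p = 0.139) and E2F7 by -0.61 ± 0.19 (adjusted p = 0.157), and none of the 3 passed.

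Against untreated LP-1 the BET inhibitor lowered 4 of the 10 genes at 4 h, where 6% of all probe sets passed as lower and 6.73% in either direction. They were E2F2 (-1.01 ± 0.12, adjusted p = 0.000747), E2F8 (-1.11 ± 0.18, adjusted p = 0.00426), E2F5 (-1.24 ± 0.30, adjusted p = 0.0277) and E2F6 (-2.22 ± 0.61, adjusted p = 0.0491). Of these, E2F2 kept its call without each array in turn, and E2F8 lost it in 1 of the 4 such fits. The calls of E2F5 and E2F6 were each lost in 3 of them and after quantile normalization (adjusted p = 0.0571 and 0.0936). At 8 h 3 of 10 were lower and 0 higher by limma, where 5.68% of all probe sets passed as lower and 7.66% in either direction. These were E2F5 (-1.58 ± 0.30, adjusted p = 0.00632), E2F2 (-0.51 ± 0.12, adjusted p = 0.0225) and E2F4 (-0.47 ± 0.12, adjusted p = 0.0377). Leaving out an array ended the call of E2F2 in 3 of the 4 fits, of E2F4 in 2 and of E2F5 in 1. Quantile normalization took the calls of E2F2 and E2F4 at 8 h away (adjusted p = 0.1 and 0.19).

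E2F7 in LP-1 at 8 h lay on both sides of untreated cells. With the inhibitor it was at 7.64 and 7.29, against 6.99 and 6.83 in untreated cells (0.55 ± 0.19, adjusted p = 0.0999). The value with the inactive enantiomer lay below untreated cells, as given above, so the difference of 1.16 between compounds is made of a positive and a negative part, neither of which passed alone. In Raji 0 of 10 genes passed against untreated cells with the inhibitor by limma, with 4 and 2 at an unadjusted p under 0.05 at 4 and 8 h, where 1.26% and 2.26% of all probe sets passed. At 4 h E2F3 differed by 0.47 ± 0.12 (adjusted p = 0.0885) and E2F7 by 0.50 ± 0.19 (adjusted p = 0.276), and E2F4 by -0.36 ± 0.12 (adjusted p = 0.213). These comparisons share their untreated arrays, and those with the inhibitor share its arrays with the comparisons above.

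**Figure D3:**
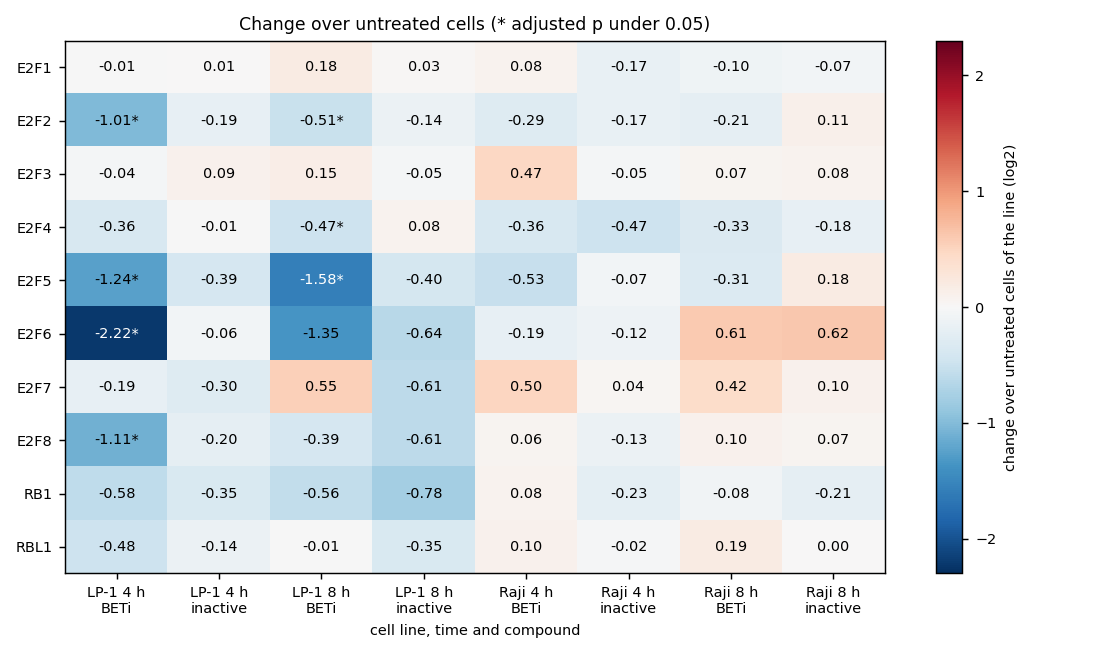
Log2 change of each gene over untreated cells of the same line, by time and compound (colour and printed value; differences of group means, n = 2 arrays per group; an asterisk marks an adjusted p under 0.05). The 7 asterisks all stand in the LP-1 columns of the BET inhibitor, and the LP-1 column of the inactive enantiomer at 8 h is negative for E2F6, E2F7, E2F8 and RB1 by 0.61 or more in size without passing.

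Whether the response to the inhibitor differed between the lines was tested directly, as the response of Raji minus that of LP-1. At 4 h 0 of 10 genes passed by limma, with 5 at an unadjusted p under 0.05, where 0.114% of all probe sets passed. The difference was 1.10 ± 0.25 for E2F8 (adjusted p = 0.0928), 0.70 ± 0.17 for E2F2 (adjusted p = 0.108) and 0.65 ± 0.17 for E2F3 (adjusted p = 0.12). E2F6 differed by 2.09 ± 0.87 (adjusted p = 0.285) and E2F4 by 0.45 ± 0.18 (adjusted p = 0.257). At 8 h 0 of 10 passed again, with 2 at an unadjusted p under 0.05, where 0.245% of all probe sets passed. The difference for E2F7 was -0.85 ± 0.26 (adjusted p = 0.296), with a 95% interval of -1.42 to -0.28. So the calls in LP-1 and their lack in Raji are not shown to differ. Without the second LP-1 inhibitor array at 4 h, E2F8 passed (1.32, adjusted p = 0.033).

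The change of the response between 4 and 8 h was tested in the same way. In LP-1 the response at 8 h minus that at 4 h was 1.13 ± 0.25 for E2F8 (adjusted p = 0.117), 1.05 ± 0.26 for E2F7 (adjusted p = 0.139) and 0.45 ± 0.17 for E2F2 (adjusted p = 0.274). None of the 10 genes passed by limma in LP-1 or in Raji, with 4 and 1 at an unadjusted p under 0.05. Over all probe sets 0% passed in both. The median of all probe sets in LP-1 was 0.11 as deposited and -0.04 with arrays centred on their medians. Without the second LP-1 inhibitor array at 4 h, E2F8 (1.34, adjusted p = 0.0335) and E2F7 (1.23, adjusted p = 0.0462) passed.

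Untreated Raji and untreated LP-1 differed in 3 of the 10 genes, all lower in Raji, where 24.3% of all probe sets passed and 17.5% were lower. E2F3 was at 6.52 and 6.45 in Raji, against 7.15 and 7.26 in LP-1 (-0.72 ± 0.12, adjusted p = 0.000566). Its call held without each array in turn. E2F7 was at 5.98 and 6.26 in Raji, against 6.99 and 6.83 in LP-1 (-0.79 ± 0.19, adjusted p = 0.00633). E2F6 was at 4.71 and 4.48 in Raji, against 6.42 and 6.95 in LP-1 (-2.09 ± 0.61, adjusted p = 0.0237). The groups did not overlap for any of the 3, but the call of E2F6 was lost in all 4 fits that left out 1 array (adjusted p up to 0.146) and that of E2F7 in 2 of them. E2F8 differed by -0.50 ± 0.18 (adjusted p = 0.0612) and RB1 by 0.35 ± 0.20 (adjusted p = 0.274). Under quantile normalization RB1 was 0.66 higher in Raji (adjusted p = 0.0119) and E2F7 no longer passed (-0.50, adjusted p = 0.0612). The median of all probe sets was -0.03 as deposited and 0.11 with arrays centred on their medians. The share called in the 10 genes is near that of all probe sets.

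Genes that work with E2F proteins were read from 7 lists. In the list of E2F target genes of S phase, 31 of 37 genes had a probe set of their own. With the BET inhibitor in LP-1 at 4 h 0 of 31 passed by limma (5 at an unadjusted p under 0.05), where 2.28% of all probe sets passed. At 8 h 4 rose and 0 fell, where 3.76% of all probe sets passed as higher and 1.97% as lower. UHRF1, which maintains DNA methylation at replication, rose by 0.91 ± 0.15 at 8 h (adjusted p = 0.00525). CLSPN, the checkpoint mediator claspin, was at 8.78 and 8.92 with the inhibitor at 8 h, against 7.73 and 7.78 with the inactive enantiomer, and rose by 1.09 ± 0.19 (adjusted p = 0.00689). ORC1, a subunit of the origin recognition complex, rose by 0.66 ± 0.12 (adjusted p = 0.00714). EZH2, a histone methyltransferase named here after its value was seen, rose by 0.62 ± 0.13 (adjusted p = 0.0161). In Raji 0 of 31 passed by limma at either time (7 at an unadjusted p under 0.05 at each). Of all probe sets, 1.78% and 1.88% passed there at 4 and 8 h. The median change of the list was -0.16 and 0.22 in LP-1 and 0.15 and 0.02 in Raji at 4 and 8 h. The value of -0.16 was -0.02 after quantile normalization and -0.02 without the first inhibitor array at 4 h. The value of 0.22 was 0.09 without the first inhibitor array at 8 h and 0.13 without the first array of the inactive enantiomer at 8 h. Against untreated LP-1 at 8 h, 2 of 31 rose and 3 fell with the inhibitor (median 0.02). In that comparison 5.68% of all probe sets passed as lower and 7.66% in either direction. With the inactive enantiomer 0 of 31 passed by limma against untreated LP-1 at 8 h, where 0.504% of all probe sets passed. Of the 31, 12 were at an unadjusted p under 0.05 and the median was -0.30.

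The E2F letters stood in 11 of the 40 RefSeq windows of these S-phase genes (27.5%) and in 4 of the 9 windows of the E2F and pocket protein genes (44.4%), against 2.79% of all windows. Without the RB1 window, which lies inside the gene, the second share is 4 of 8 (50%). The S-phase genes were listed as E2F targets, so their share describes that choice.

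Cyclin-dependent kinase (CDK) inhibitors keep RB1 in its active form by blocking the kinases. Of the 6 measured, 1 rose in LP-1 at 4 h and 2 at 8 h. Of all 22011 probe sets, 83 and 828 passed as higher in LP-1 at 4 and 8 h, and 316 and 182 in Raji. CDKN1A, encoding p21, rose by 1.48 ± 0.28 at 4 h (adjusted p = 0.0166). Its rise at 8 h was 1.04 ± 0.28 (adjusted p = 0.0487). CDKN2D encodes p19, which blocks CDK4 and CDK6. At 8 h it was at 6.13 and 6.15 with the inhibitor, against 4.50 and 5.05 with the inactive enantiomer. This was a difference of 1.36 ± 0.21 (adjusted p = 0.00287). At 4 h CDKN2D was at 5.90 and 5.84 with the inhibitor, against 5.68 and 5.70 with the inactive enantiomer. The difference at 8 h thus lies partly in lower control values. In Raji CDKN1B, encoding p27, was at 6.39 and 6.47 with the inhibitor at 8 h, against 4.96 and 5.16 with the inactive enantiomer. It was the 1 gene of 6 to rise there, by 1.37 ± 0.22 (adjusted p = 0.00895), with 0 of 6 at 4 h (2 at an unadjusted p under 0.05). Against untreated Raji at 8 h 0 of 6 passed by limma with the inhibitor, CDKN1B included (2 at an unadjusted p under 0.05). With the inactive enantiomer at 8 h 0 of 6 passed against untreated Raji, 2 were at an unadjusted p under 0.05 and the median was -0.31. Against untreated LP-1, 1 of 6 rose with the inhibitor at each time. The call of CDKN1A at 4 h was lost in 2 of the 4 fits without an array, and those of CDKN1A at 8 h and of CDKN1B in 3 of 4. Centring arrays on their medians also ended that of CDKN1A at 8 h (adjusted p = 0.0714).

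The list of G1 cyclins and kinases that phosphorylate pocket proteins also holds CDC25A and SKP2, which are neither cyclins nor kinases. Of its measured genes, 0 of 10 passed by limma in LP-1 at 4 h and 1 rose at 8 h. In Raji 1 rose at 4 h and 0 passed at 8 h. At an unadjusted p under 0.05 there were 1 and 4 of 10 in LP-1 at 4 and 8 h and 4 and 3 in Raji. In either direction 2.28% and 5.73% of all probe sets passed in LP-1 at 4 and 8 h, and 1.78% and 1.88% in Raji. As higher alone, 828 of 22011 (3.76%) passed in LP-1 at 8 h and 316 in Raji at 4 h. Against untreated cells 0 of 10 rose with the inhibitor in LP-1 at 8 h, where 1 fell, and 0 passed in Raji at 4 h. With the inactive enantiomer 1 of 10 fell against untreated LP-1 at 8 h, and the median was -0.26. CCNE2, encoding cyclin E2, rose by 0.66 ± 0.18 in LP-1 at 8 h (adjusted p = 0.0473). CCNE1, encoding cyclin E1, rose by 0.76 ± 0.17 in Raji at 4 h (adjusted p = 0.0474). Both are partners of CDK2 and known E2F targets. Both calls ended when any 1 of the arrays compared was left out, and with arrays centred on their medians (adjusted p = 0.0843 for CCNE2 and 0.063 for CCNE1).

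**Figure D4:**
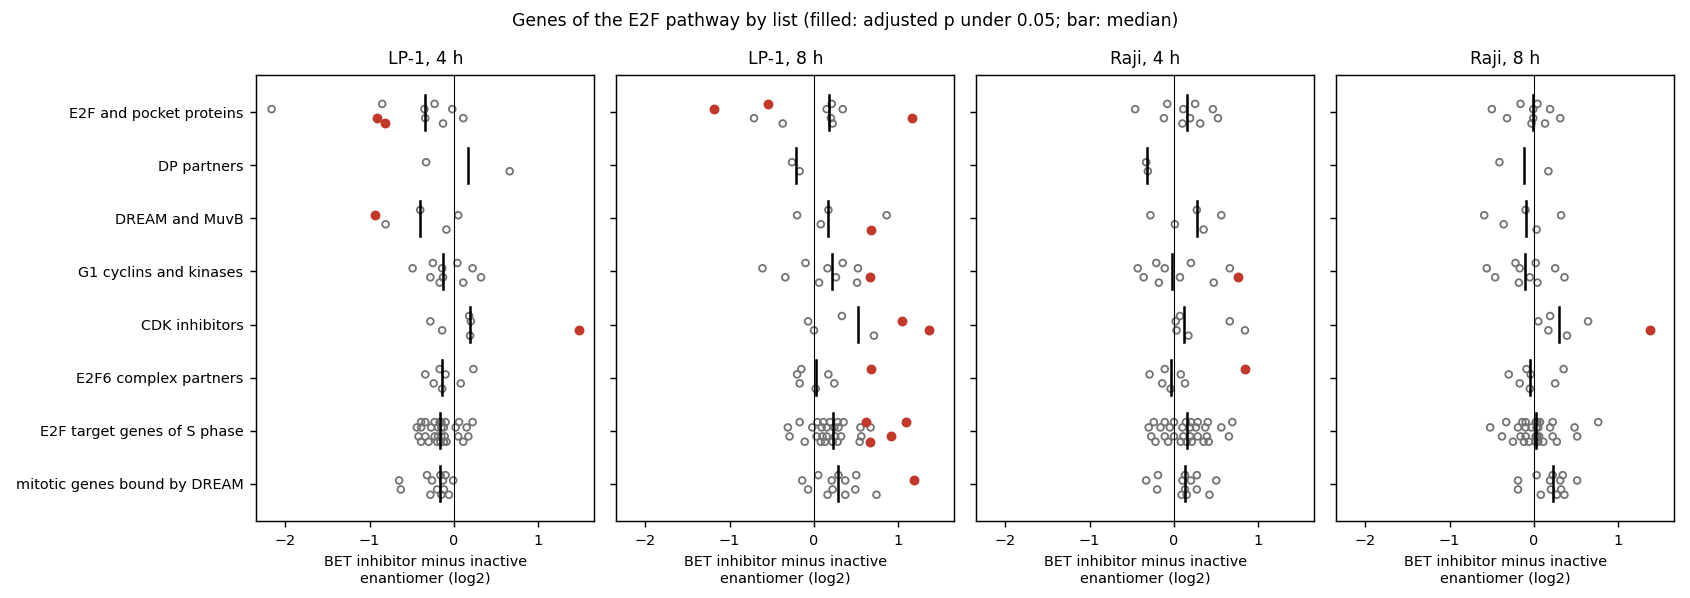
Log2 change with the BET inhibitor relative to the inactive enantiomer for the measured genes of each list, 1 point per gene (difference of group means, n = 2 arrays per group); filled red points passed at an adjusted p under 0.05 and the black bar is the median of the list. The medians of the S-phase list are -0.16, 0.22, 0.15 and 0.02 from left to right, and the filled points of that list all stand in LP-1 at 8 h.

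DREAM is the complex of E2F4 or E2F5 with a pocket protein and the MuvB core. The list of DREAM and MuvB genes also holds FOXM1, MYBL1 and MYBL2, which are not subunits of DREAM. Of this list, 5 of 9 genes had a probe set of their own. LIN9, a MuvB subunit, was at 4.51 and 4.73 with the inhibitor in LP-1 at 4 h, against 5.54 and 5.56 with the inactive enantiomer, and fell by 0.93 ± 0.20 (adjusted p = 0.0317). LIN54, the DNA-binding subunit, rose by 0.67 ± 0.15 in LP-1 at 8 h (adjusted p = 0.0192). Against untreated LP-1 at 8 h 0 of 5 passed by limma with the inhibitor, LIN54 included (3 at an unadjusted p under 0.05). The median of the list with the inactive enantiomer was -0.26 against untreated LP-1 at 8 h, and 0 of 5 passed. Leaving out any 1 of the arrays compared ended the call of LIN54, and that of LIN9 was lost in 3 of the 4 such fits, and centring arrays on their medians also ended that of LIN9 (adjusted p = 0.0518). In Raji 0 of 5 passed by limma at either time (2 and 1 at an unadjusted p under 0.05 at 4 and 8 h). Over all probe sets 1.9% passed as lower in LP-1 at 4 h and 3.76% as higher at 8 h. In either direction 2.28% passed in LP-1 at 4 h, and 1.78% and 1.88% in Raji at 4 and 8 h. Of the mitotic genes bound by DREAM, 0 of 13 passed in LP-1 at 4 h and in Raji at both times (2, 1 and 1 at an unadjusted p under 0.05). In LP-1 at 8 h 1 of 13 rose, CDC25C, the phosphatase that activates CDK1 (1.18 ± 0.28, adjusted p = 0.0269). The call was lost in 3 of the 4 fits without an array. CDC25C with the inactive enantiomer was at 6.51 and 6.04 at 4 h and at 5.49 and 6.16 at 8 h. Against untreated LP-1 at 8 h the mitotic list had a median of -0.39 with the inactive enantiomer. There 0 of 13 passed, 6 were at an unadjusted p under 0.05, and 0.504% of all probe sets passed. With the inhibitor that median was -0.14 and 1 of 13 passed, as higher, where 7.66% of all probe sets passed.

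Among partners of E2F6 in its Polycomb complex, 7 of 10 had a probe set of their own. Of all 22011 probe sets, 828 passed as higher in LP-1 at 8 h and 316 in Raji at 4 h. RYBP, a subunit of such complexes, rose in LP-1 at 8 h and in Raji at 4 h. In LP-1 at 8 h it was at 6.75 and 6.94 with the inhibitor, against 6.08 and 6.27 with the inactive enantiomer (0.67 ± 0.14, adjusted p = 0.013). In Raji at 4 h it was at 5.75 and 5.73 with the inhibitor, against 4.90 and 4.89 with the inactive enantiomer (0.84 ± 0.14, adjusted p = 0.00995). Leaving out any 1 of the arrays compared ended the Raji call, and the LP-1 call was lost in 2 of 4 such fits. The other members passed in none of the 4 comparisons. Against untreated LP-1 at 8 h 0 of 7 passed by limma with the inhibitor, RYBP included (2 at an unadjusted p under 0.05). With the inactive enantiomer the median was -0.18 and 0 of 7 passed there. Against untreated Raji at 4 h 1 of 7 rose with the inhibitor. Of the DP partners, TFDP2 and TFDP3 had a probe set of their own and 0 of 2 passed in any of the 4 comparisons. At an unadjusted p under 0.05 there were 1, 0, 0 and 1 in LP-1 at 4 and 8 h and Raji at 4 and 8 h. Over all probe sets 2.28%, 5.73%, 1.78% and 1.88% passed in these comparisons.

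The members that passed did not share 1 pattern over the 10 groups. Likeness was measured as Pearson's r over the 10 group means after subtracting the mean of each line, which are means of shared arrays, so r is given as a description. E2F2 was like E2F6 (0.884), E2F5 (0.822), E2F8 (0.779) and E2F4 (0.751) and unlike E2F7 (-0.304). E2F7 ran against E2F4 (-0.654) and E2F5 (-0.642) and along with RBL1 (0.68), and its r with E2F8 was 0.262. E2F8 was closest among the 10 genes to RBL1 (0.862).

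Over all genes, the closest to E2F2 were GTF2H1, a subunit of the transcription factor TFIIH (0.989), ENTPD1-AS1 (0.985) and UPF2, a factor of nonsense-mediated decay (0.983). E2F4 was closest to NFIC (0.985), THYN1 (0.963) and MRPL46, a mitochondrial ribosomal protein (0.955). The genes closest to E2F5 were PAK1IP1 (0.987), CIITA, the activator of HLA class II genes (0.987), and QRSL1 (0.984). Those closest to E2F7 were STIL, a centriole assembly protein (0.98), GPR155 (0.98) and POLH, a DNA polymerase that copies past damage (0.978). WARS2 (0.975), ALKBH1 (0.974) and FOXN2 (0.97) were closest to E2F8.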

How the data were processed

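Total RNA of LP-1 and Raji cultures was amplified, labelled with biotin and hybridised to Affymetrix exon arrays, per the labels' protocols. The authors deposited log2 values per transcript-level probe set, made with RMA in Affymetrix Expression Console on hg19, per the submitters' processing notes, with no versions given. These were used as deposited. Arrays have no read depth, so their number limits the precision.

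The platform annotation gave 1 symbol to 14432 probe sets, several to 2408 and none to 5171, and RefSeq held the Entrez identifier of 14404 of those with 1. The 10 group means were estimated together from the 20 arrays (limma 3.58.1, R 4.3.3, 10 residual and 2.59 prior degrees of freedom), and 17 comparisons were tested two-sided. Each probe set has 1 spread estimate pooled over the 10 groups, and the replicates behind it are biological ones, per the labels. The members and lists were chosen with earlier results of these data known. Genes named are the 10 members, MYC, up to 3 called genes per list and line, and the 3 genes closest in pattern to each called member; EZH2 was added later. The alternatives were quantile normalization, centring on array medians, leaving out the dimmest probe sets, an intensity trend, the arrays of 1 line alone, a replicate block and leaving out each array.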

Additional observations from a re-analysis of the deposited data

How the results depend on the processing

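With 2 arrays per group the count of the 10 genes called depended on single arrays. Leaving out each array in turn gave 0 to 3 genes against 2 for the BET inhibitor over the inactive enantiomer in LP-1 at 4 h, and 1 to 2 against 3 at 8 h. It gave 1 to 5 against 4 and 1 to 3 against 3 for the inhibitor over untreated LP-1 at 4 and 8 h, and 1 to 2 against 3 for untreated Raji over untreated LP-1. It gave 0 to 1 for the difference of response between lines at 4 h and 0 to 2 for that between times in LP-1, against 0 in each. Where a group kept 1 array, that array is assumed to vary like the other groups.

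Fitting the arrays of 1 line alone, with fewer arrays behind each spread, gave 0 genes in LP-1 at 4 h and 1 at 8 h over the inactive enantiomer, and 2 and 1 over untreated cells. Quantile normalization gave 2 over untreated LP-1 at 4 h and 1 over untreated Raji at 4 h. Leaving out the dimmest probe sets, or an intensity trend, gave 1 gene in Raji at 4 h over the inactive enantiomer (E2F3), and 7 S-phase genes against 4 in LP-1 at 8 h, where the arrays of 1 line alone gave 2. The cause was not tested. Among the members, MYC and the list genes named by rule, no called value reversed its sign in these fits. EZH2 and the markers of the lines were not part of that check.

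Of all probe sets, 502, 1262, 391 and 414 passed for the inhibitor over the inactive enantiomer in LP-1 at 4 and 8 h and Raji at 4 and 8 h. The arrays of 1 line alone gave 76, 347, 49 and 90, and leaving out an array 64 to 971, 485 to 985, 27 to 154 and 100 to 145. The share of higher calls over all probe sets in LP-1 was 16.5% at 4 h and 65.6% at 8 h as deposited, 26.4% and 49.9% with arrays centred on their medians and 33% and 53.9% after quantile normalization. In Raji at 4 h it was 80.8% as deposited and 61.2% after quantile normalization. Replicate numbers are shared by the groups, but the deviations of same-numbered arrays were hardly correlated within a line (r from -0.16 to 0.121). These values cannot tell whether same-numbered samples shared a culture or a day. A replicate block kept the counts of 2 and 3 genes in LP-1 and gave 3, 2 and 2 against 4, 3 and 3 in the comparisons with untreated LP-1 and between untreated lines, and it ended the calls of CCNE2, CCNE1 and CDKN1A at 8 h (adjusted p = 0.0767, 0.0775 and 0.0725). The planned use of other probe sets was not run, since each of the 10 genes had 1.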
